A study of Juglans regia with 21 samples.

Results

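The bHLH genes of the walnut pellicle were taken as every gene whose deposited NR or Swiss-Prot description names bHLH or basic helix-loop-helix and does not name MYB. The rule took 144 of the 31425 genes in the table, and the MYB condition removed 0 of them. Basic helix-loop-helix proteins bind DNA as pairs: the basic stretch reads short E-box elements and the helix-loop-helix holds the partner, so one member can act through several dimers. In plants they form one of the large regulator families, with branches that act in pigment synthesis, jasmonate and light responses, iron supply, stomata, root hairs and vascular tissue. In seed coats, bHLH proteins of the TT8 type work with MYB and WD40 partners to switch on the enzymes that make anthocyanins and proanthocyanidins.

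Walnut kernels are wrapped in a thin seed coat, the pellicle. Pellicles of field-grown *Juglans regia* trees of the cultivar Xinwen179 were collected at 8, 9, 11, 13, 15, 17 and 19 weeks after pollination (8W to 19W), and their poly(A) RNA was sequenced as 3 libraries per stage, 21 in all. All stages share the cultivar and the tissue, and stage is the one thing that differs by label. The labels do not tell whether the 3 libraries per stage are from different trees or fruits, so every p-value rests on library spread that may be technical alone. The time of day of sampling is not in the labels.

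Libraries held between 13144713 and 17878761 counted reads. Levels are given as TMM-scaled CPM (read counts relative to library size), as single libraries or as mean ± SD with n = 3, and levels of single genes are set against each other by the deposited FPKM, which is per length. A sum of CPM, or a gene with the most reads of its list, is a count of reads and not a level per length. Of the 24 genes named for seed coat functions such as anthocyanidin reductase, 16 were tested. The 24 summed to 286 to 303 CPM at 8W, 363 to 394 at 9W and 174 to 203 at 11W. Their sum was 147 to 161 CPM at 13W and 134 to 171 at 15W. It was 114 to 128 CPM at 17W and 212 to 260 at 19W. At 19W 3 were higher and 9 lower than at 8W (against 39% and 38.8% of all tested genes). The 20 embryo and kernel storage genes summed to 197 to 354 CPM at 8W, 905 to 1262 at 9W, 11571 to 24440 at 11W, 3866 to 13296 at 13W, 8181 to 11115 at 15W, 2760 to 4726 at 17W and 15651 to 19761 at 19W. The first 11W library held 24440 of these and the other two 13013 and 11571, and it differed most from its replicates in a chi-square over genes, at 21.7 and 28.1 per degree of freedom. Counts of bHLH genes called without that library are given where they are first reported. The 3 genes named LHY, a morning clock regulator, summed to 25.0 to 31.9 CPM at 8W, 476 to 550 at 9W, 34.9 to 46.7 at 11W, 346 to 369 at 13W, 205 to 213 at 15W, 90.5 to 104 at 17W and 383 to 410 at 19W. In bulk tissue, fewer cells of a type and less RNA per cell cannot be told apart.

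Of the 144 bHLH genes, 103 had enough reads to be tested, 11 had no read in any library and the 41 untested genes held at most 106 reads each over all libraries. At 8W 87 genes were above 1 CPM and at 11W 94 were, and 70 stayed at 1 CPM or more in every stage. The 5 genes with the most reads held 48.2% of all bHLH reads. The most abundant per length was bHLH93 (Jr4DG00042800, chromosome 4D, 4563320 to 4565024), at a mean of 618 FPKM, followed by bHLH153 (Jr1DG00186900, chromosome 1D, 37599500 to 37604426), at 362 FPKM, and bHLH66 (Jr8DG00157900, chromosome 8D, 33341152 to 33345102), at 185 FPKM. The bHLH93 gene was the highest at every stage but 17W, where bHLH66 at 530.5 FPKM led bHLH153 at 485 FPKM. Positions are those of the deposited table, whose genome build is not stated.

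The summed level of the 144 genes was 3546 ± 150 CPM at 8W, 3094 ± 144 at 9W and 2994 ± 151 at 11W. It stood at 4365 ± 140 CPM at 13W, 4040 ± 29.8 at 15W and 4665 ± 65.3 at 17W, and at 3631 ± 136 at 19W. The 3 stages from 13W to 17W were thus the highest, and all their libraries lay above all libraries of the other stages.

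**Figure D1:**
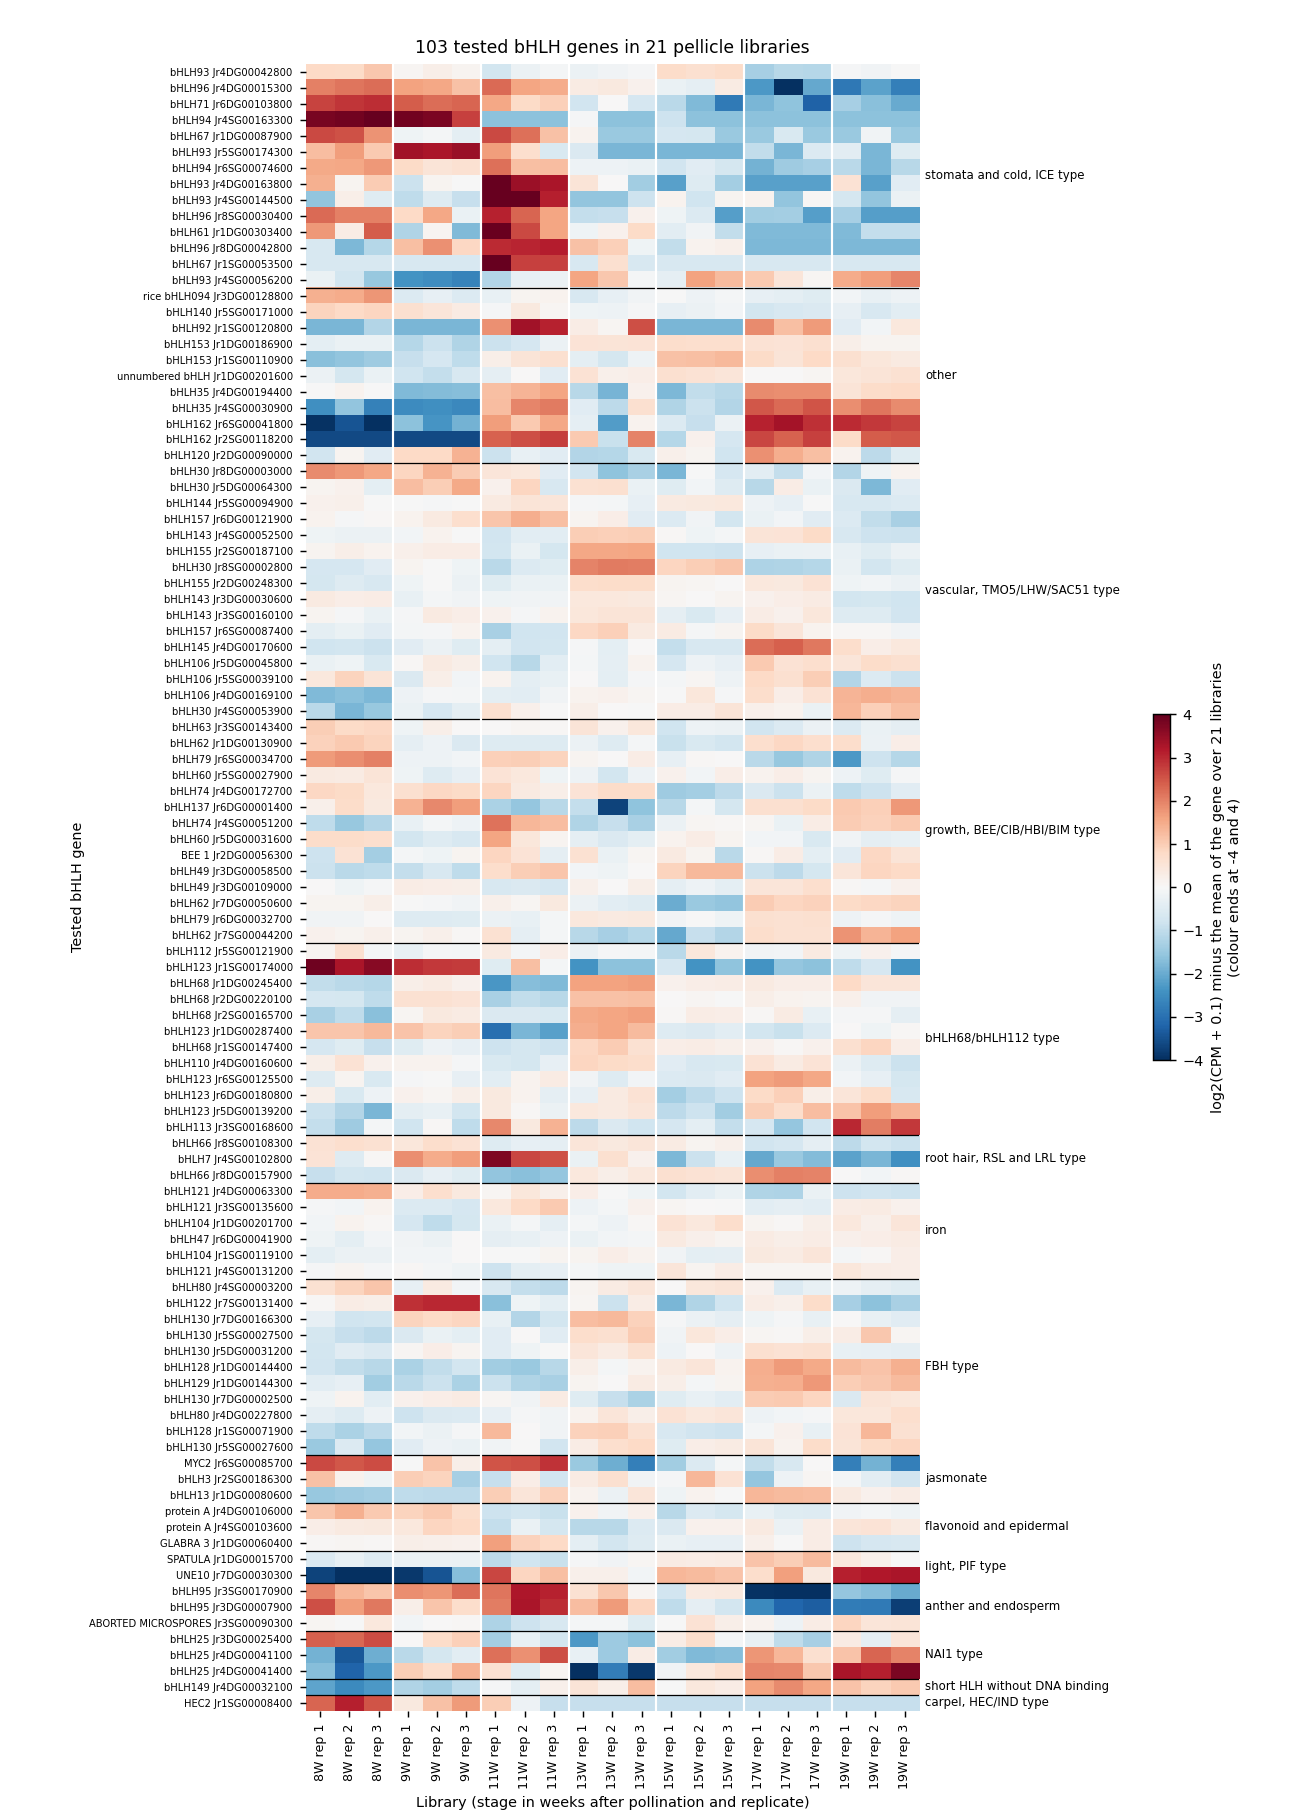
Levels of the 103 tested bHLH genes (rows, by role class) in the 21 libraries (columns, by stage), as log2(CPM + 0.1) minus the mean of each gene, red for above and blue for below that mean. Most rows of the ICE class turn towards blue from 11W to 13W and are lower at 19W than at 8W, with mixed courses from 8W to 11W. The bHLH35 and bHLH162 rows are red at 11W, 17W and 19W.

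Nearly every tested bHLH gene differed between stages, as did nearly every gene. In edgeR's quasi-likelihood F-test 100 of 103 (97.1%) passed an adjusted p of 0.05, against 97.7% of the 21707 genes tested. The 3 that did not pass were BEE 1 (Jr2DG00056300), bHLH3 (Jr2SG00186300) and bHLH112 (Jr5SG00121900), with adjusted p of 0.646, 0.182 and 0.711. Of the 103, 96 (93.2%) differed and spanned at least 2-fold between the highest and the lowest stage mean, against 75.7% of all tested genes, 64 (62.1%) spanned at least 4-fold, against 40.1%, and 34 (33%) at least 10-fold, against 21.4%. Without the first 11W library 102 genes differed, but that fit applied its own filter, so its number tested need not be 103.

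Between the first and the last stage bHLH genes went both ways in shares near the background. At 19W 44 were higher than at 8W (42.7%, against 39% of all tested genes) and 40 lower (38.8%, against 38.8%), with a median log2 change of 0.12 against -0.01 over all genes. By at least 2-fold, 27 were higher, against 20.8% of all genes, and 29 lower, against 21.8%. From 8W to 9W 35 were higher and 33 lower (34% and 32%, against 34.4% and 31.1%), of which 19 rose and 14 fell by at least 2-fold, against 13.3% and 11.4% of all genes. From 9W to 11W 43 were higher and 36 lower (41.7% and 35%, against 34.3% and 31.6%), and 41 and 37 without the first 11W library. By at least 2-fold 27 rose, against 14.4%, and 16 fell, against 11.9%.

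From 11W to 13W 37 were higher and 43 lower (35.9% and 41.7%, against 32.1% and 35%), also without the first 11W library. By at least 2-fold 19 rose, against 9.85% of all genes, and 33 fell, against 17.6%. From 13W to 15W 19 were higher and 36 lower (18.4% and 35%, against 24.8% and 26.3%), with a median of -0.39 against -0.02, and by at least 2-fold 8 rose, against 7.04%, and 20 fell, against 8.06%. From 15W to 17W the balance turned, with 40 higher and 19 lower (38.8% and 18.4%, against 29.3% and 30.8%). By at least 2-fold 25 rose, against 12.1%, and 9 fell, against 9.77%. From 17W to 19W 22 were higher and 29 lower (21.4% and 28.2%, against 28.5% and 26.1%), and by at least 2-fold 9 rose, against 9.48%, and 12 fell, against 7.99%.

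**Figure D2:**
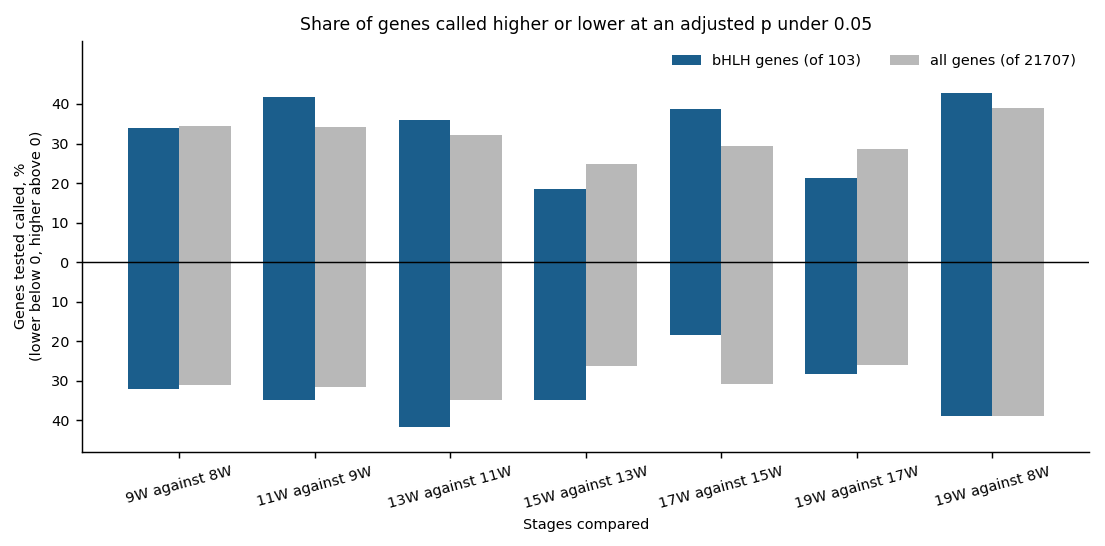
Share of the 103 tested bHLH genes (blue) and of all 21707 tested genes (grey) called higher (above 0) or lower (below 0) in each pair of stages at an adjusted p under 0.05. The bHLH share is below the grey bar for higher and above it for lower at 15W against 13W, and the reverse at 17W against 15W.

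Of the 97 bHLH genes with at least a 2-fold range, 17W was the peak stage of 21 (21.6%, against 18.3% of all genes with that range), 11W of 19 (19.6%, against 13.6%), 8W of 18 (18.6%, against 22.3%) and 13W of 15 (15.5%, against 9.34%). The 19W stage was the peak of 12 (12.4%, against 13.1%), and 9W and 15W of 6 each (6.19%, against 16% and 7.36%). The difference between these shares was not tested.

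**Figure D3:**
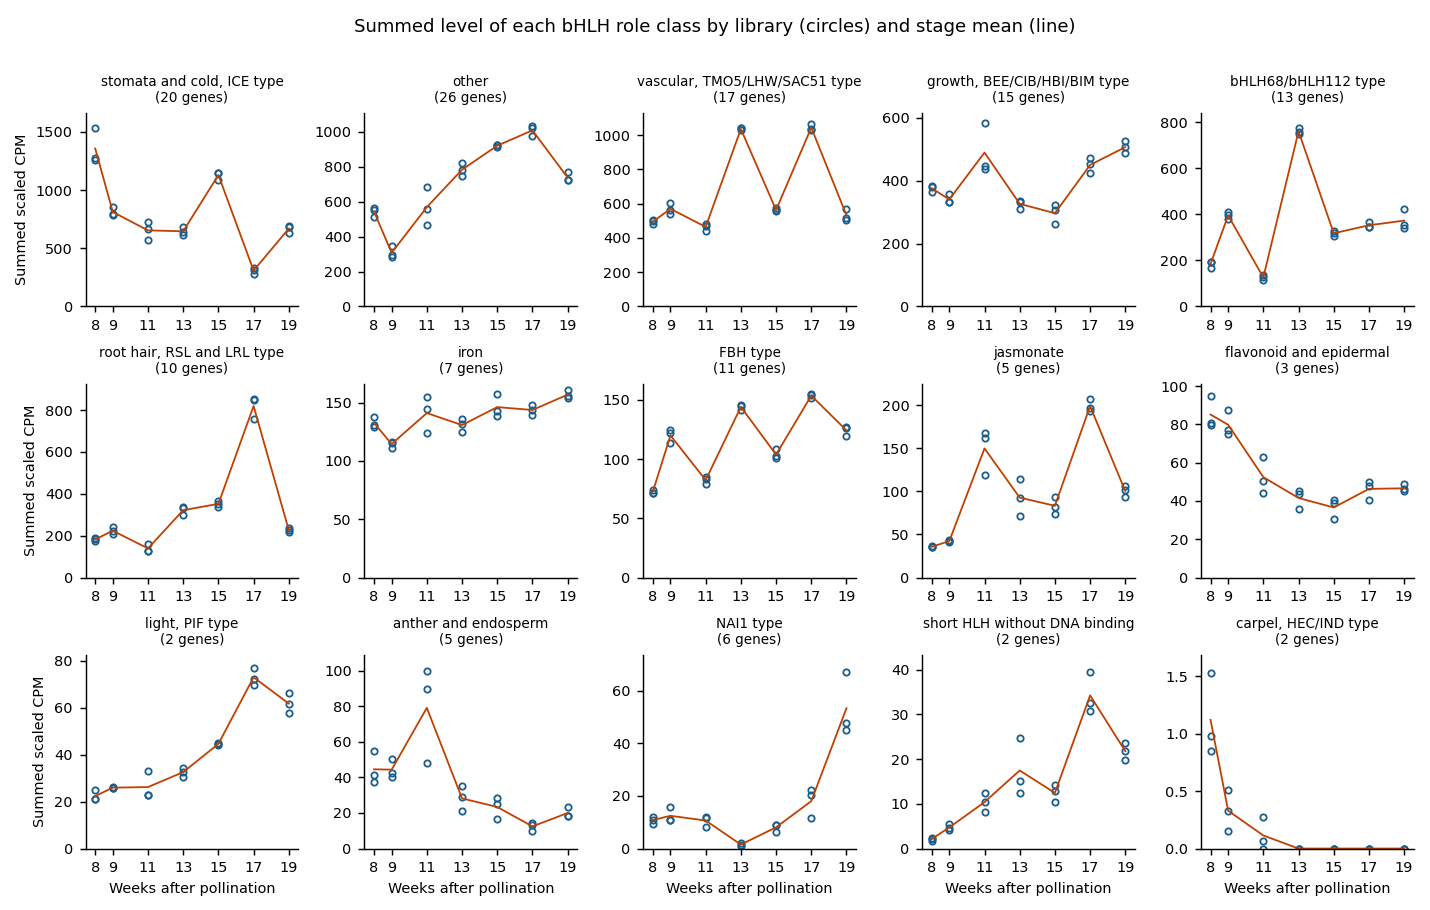
Summed CPM of the genes of each role class (vertical axis from 0) against weeks after pollination, with 1 circle per library and a line through the stage means. The flavonoid class has its highest mean at 8W, at 85.2 ± 8.26 CPM, but its libraries overlap with those of 9W, at 79.9 ± 6.81. The bHLH68 and bHLH112 class is highest at 13W. The root hair class is highest at 17W, where its libraries sum to over 750 CPM. Most of that sum is bHLH66 (Jr8DG00157900), at 733, 825 and 816 CPM.

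The pigment branch was represented by 3 tested genes. Both genes named bHLH protein A, after the pea regulator of flower anthocyanin and called MYC1 in NR, are of the TT8 type and carry the HLH domain and the MYC N-terminal domain. The D copy (Jr4DG00106000, chromosome 4D, 21166508 to 21173946) was at 52.8, 65.6 and 50.7 CPM at 8W, 13.8, 14.8 and 13.3 at 11W and 22.5, 23.5 and 21.5 at 19W. Its 8W libraries lay above all 11W and 19W libraries, and it fell by 1.71 ± 0.13 (log2 change ± SE) from 9W to 11W, adjusted p 6.91e-11, and was lower at 19W than at 8W by a log2 change of -1.33 ± 0.13, adjusted p 1.29e-09. The S copy (Jr4SG00103600) was at 13.8, 14.7 and 15.0 CPM at 8W and 16.1, 16.5 and 14.7 at 19W, which overlap, and its change of 0.12 ± 0.19 did not pass, adjusted p 0.572. It did fall from 9W to 11W, from 18.4 ± 2.90 to 7.39 ± 1.86 CPM, with a log2 change of -1.31 ± 0.20 and adjusted p 4.62e-06. The sign of its change from 8W to 19W turned with upper-quartile factors, at -0.09, and with library sizes alone, at -0.21.

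GLABRA 3 (Jr1DG00060400), which in Arabidopsis drives leaf hairs and anthocyanin with MYB partners, had another course. It was at 43.5, 26.0 and 23.8 CPM at 11W and at 10.5, 8.26 and 9.55 at 13W, and no 11W library overlapped with a 9W or 13W one. The first 11W library, highest in storage transcripts, was also the highest here, and its part in the rise was not tested. GLABRA 3 rose by 0.97 ± 0.16 (log2) from 9W to 11W, adjusted p 7.44e-06, and fell by 1.72 ± 0.16 from 11W to 13W, adjusted p 2.93e-09. The second gene named GLABRA 3 (Jr6SG00099400), outside the name rule, had means of 9.67, 50.03 and 0.524 CPM at 8W, 9W and 19W.

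Genes named for the enzymes these regulators are known to act on in other plants did not share one course. They were listed by product name, NR first. Swiss-Prot names some otherwise, such as feruloyl CoA ortho-hydroxylase 2 for Jr7DG00149700, so not all need be such enzymes. Of 19 genes named for late flavonoid and proanthocyanidin steps 14 were tested. At 19W 6 were higher and 6 lower than at 8W (against 39% and 38.8% of all tested genes), with a median log2 change of 0.35. From 8W to 9W 7 rose and 0 fell (against 34.4% and 31.1%), with a median of 0.62. From 9W to 11W, the step at which both protein A genes fell, 3 of the listed genes rose and 7 fell (against 34.3% and 31.6%), with a median of -0.59. Anthocyanidin reductase (Jr5DG00075400), which makes the building units of proanthocyanidins, had a mean of 37.1 CPM at 8W and of 139.5 CPM at 9W, and went from 29.9 CPM at 17W to 146 at 19W. Jr8DG00061900, a dihydroflavonol reductase in NR and a putative one in Swiss-Prot, had the most reads of the list. It stood at 30.5 CPM at 8W and at 124 at 13W.

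The jasmonate branch had 3 tested genes of 5. The highest per length, at a mean of 33.9 FPKM, was bHLH13 (Jr1DG00080600; Myc2 in NR), which by its Swiss-Prot name belongs to the JAM repressors that dampen jasmonate responses in Arabidopsis. It was at 29.0, 30.5 and 32.0 CPM at 8W, 164, 114 and 157 at 11W and 207, 196 and 192 at 17W. All 11W libraries exceeded all of 8W and 9W, and the 17W libraries were the highest of the series. It rose by 1.86 ± 0.15 (log2) from 9W to 11W, adjusted p 2.45e-09, fell by 0.66 ± 0.14 to 13W, adjusted p 0.000403, rose by 1.28 ± 0.14 from 15W to 17W, adjusted p 3.14e-07, and fell by 0.99 ± 0.14 to 19W, adjusted p 9.1e-06.

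MYC2 (Jr6SG00085700), named after the activator that jasmonate repressors hold in check, had a mean of 0.977 FPKM. It was at 4.01, 3.57 and 3.91 CPM at 8W and 3.65, 3.87 and 4.80 at 11W, and at 0, 0.078 and 0 at 19W, which is 1 read in all. Its 8W mean exceeded that of 19W by a ratio of 146 with a counting interval of 25.8 to 5786 at 95% confidence (exact Poisson, counting error only), adjusted p 2.46e-09. From 11W to 13W the ratio was 59.1, interval 19.9 to 289, adjusted p 5.16e-09. Without the second 19W library, the one with the read, the fitted log2 change from 8W to 19W moved from -6.79 to -8.86, and without the first 13W library that from 11W to 13W moved from -5.72 to -6.56. The third gene, bHLH3 (Jr2SG00186300), lay between 0.231 and 2.34 CPM in all libraries and did not pass in any of the 7 pairs of stages tested.

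JAZ repressors bind MYC2 proteins until jasmonate removes them. Of 18 genes named JAZ or TIFY 13 were tested. They were listed by name and include a GATA-type zinc finger protein with a TIFY domain (Jr3SG00119300), so not all need be such repressors. From 9W to 11W 8 rose and 4 fell (against 34.3% and 31.6% of all tested genes), with a median of 0.84. From 15W to 17W 9 rose and 2 fell (against 29.3% and 30.8%), also with a median of 0.84. From 13W to 15W 1 rose and 7 fell (against 24.8% and 26.3%), with a median of -0.76. TIFY 5A (Jr5DG00112700) had a mean of 0.0405 CPM at 8W but 55.1 at 11W, and went from 6.29 CPM at 15W to 33.8 at 17W. The gene with the most reads, TIFY 6B-like Jr3SG00057100, was highest at 15W, with 981 CPM, and was at 372 at 8W.

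The class of ICE and stomatal relatives held the most reads of the named classes over the series. Most of them were reads of 1 gene, bHLH93 (Jr4DG00042800), with 236418 over all libraries. Of its 20 genes 14 were tested and 5 had no reads. At 19W 1 was higher and 9 lower than at 8W (against 39% and 38.8% of all tested genes), with a median log2 change of -2.97. The steps were uneven. From 8W to 9W 2 rose and 8 fell (against 34.4% and 31.1%), and from 9W to 11W 9 rose and 4 fell (against 34.3% and 31.6%). From 11W to 13W 1 rose and 11 fell (against 32.1% and 35%). The medians of these steps were, in order, -0.72, 1.75 and -2.76. From 15W to 17W 0 rose and 4 fell (against 29.3% and 30.8%). These medians include genes at 0 reads in a stage, whose fitted changes depend on the prior count.

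bHLH93 (Jr4DG00042800), whose Arabidopsis namesake is needed for flowering in short days, was the most abundant of the class per length. It was at 1176, 1150 and 1419 CPM at 8W, 1131, 1063 and 1127 at 15W and 271, 316 and 305 at 17W. The 17W libraries were the lowest of the series, and the 8W and 15W libraries were the highest. It fell by 1.90 ± 0.12 (log2) from 15W to 17W, adjusted p 4.88e-12, rose by 1.13 ± 0.12 to 19W, adjusted p 2.73e-08, and was lower at 19W than at 8W by a log2 change of -0.94 ± 0.12, adjusted p 1.19e-07.

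Among relatives of the stomatal regulators SPEECHLESS, MUTE and FAMA, bHLH71 (Jr6DG00103800) was at 14.9, 16.4 and 17.5 CPM at 8W, 6.61, 3.81 and 4.33 at 11W and 0.819, 0.624 and 0.463 at 19W. Its libraries fell without overlap at each step from 8W to 13W, and its log2 change from 8W to 19W was -4.67 ± 0.33, adjusted p 4.32e-12. bHLH96 (Jr4DG00015300) went from 18.5 ± 1.46 CPM at 8W to 0.630 ± 0.199 at 19W, a log2 change of -4.86 ± 0.33 with adjusted p 3.83e-12. The genes named SPEECHLESS (Jr3DG00236700) and FAMA (Jr1SG00081000), outside the name rule, had stage means of at most 1.45 and 0.887 CPM.

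A second bHLH93 gene, Jr4SG00144500 (inducer of CBF expression 4 in NR), was seen almost only at 11W. It was at 12.4, 5.58 and 2.47 CPM there and between 0 and 0.255 in the other 18 libraries. The log2 change from 9W to 11W was 6.42 ± 0.72, adjusted p 3.71e-08, and the fall to 13W, where 1 read remained, was a ratio of 291 with a counting interval of 51.8 to 11523, adjusted p 4.22e-08. The highest value is again that of the first 11W library: without it the fitted fall moved from -7.75 to -7.02, and without the third 13W library to -9.66.

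The vascular class of TMO5, LHW and SAC51 relatives was highest at 13W and 17W, with sums of 1036 and 1044 CPM against 464 to 570.1 in the other stages. The 17W sum includes 463, 516 and 423 CPM of 1 gene, bHLH145 (Jr4DG00170600), described below. Of the tested genes, 7 had their highest stage at 13W and 3 at 17W. In Arabidopsis, TMO5 and LHW proteins pair to drive divisions in vascular tissue, and the SAC51 family counters them. Of 17 genes 16 were tested. From 11W to 13W 10 rose and 3 fell (against 32.1% and 35% of all tested genes). From 13W to 15W 1 rose and 8 fell (against 24.8% and 26.3%). From 15W to 17W 9 rose and 2 fell (against 29.3% and 30.8%), and from 17W to 19W 3 rose and 9 fell (against 28.5% and 26.1%). The LHW relative bHLH155 (Jr2SG00187100) was at 39.9, 54.8 and 40.8 CPM at 11W, 192, 191 and 199 at 13W and 38.4, 38.1 and 37.5 at 15W. Its 13W libraries were more than 2 times those of every other stage: it rose by 2.10 ± 0.09 (log2), adjusted p 2.08e-15, and fell by 2.35 ± 0.09, adjusted p 7.13e-16. The SAC51 relative bHLH143 (Jr4SG00052500) was at 264, 260.4 and 262 CPM at 13W and 85.5, 74.7 and 72.9 at 19W.

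Among genes outside the rule for naming, chosen after their values were seen, bHLH145 (Jr4DG00170600), also of the SAC51 family, was at 51.0, 63.1 and 63.5 CPM at 15W, 463, 516 and 423 at 17W and 159, 119 and 132 at 19W. The 17W libraries exceeded every other library of the series, and the rise was 2.98 ± 0.13 on the log2 scale, adjusted p 4.03e-13. bHLH30 (Jr8SG00002800), of the TMO5 family, was at 173, 182 and 179 CPM at 13W and at 18.3, 18.8 and 19.8 at 17W. It rose by 2.72 ± 0.13 from 11W to 13W, adjusted p 7.34e-14, and fell by 2.19 ± 0.13 from 15W to 17W, adjusted p 5.11e-12.

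The bHLH68 and bHLH112 class had its highest sum at 13W. Of 13 genes 12 were tested, and 13W was the highest stage of 6, with 2 each highest at 8W, 17W and 19W. From 11W to 13W 6 rose and 2 fell (against 32.1% and 35% of all tested genes). From 13W to 15W 0 rose and 8 fell (against 24.8% and 26.3%). bHLH68 (Jr1DG00245400) was at 144, 152 and 137 CPM at 9W, 24.1, 37.6 and 35.8 at 11W, 369, 369.8 and 385 at 13W and 136, 146 and 149 at 15W. The 13W libraries were above all others and the 11W libraries below all others. It fell by 2.15 ± 0.11 (log2) from 9W to 11W, adjusted p 4.12e-13, rose by 3.53 ± 0.12 to 13W, adjusted p 3.01e-16, and fell by 1.38 ± 0.11 to 15W, adjusted p 5.71e-10. The LHY genes were also high at 9W and 13W and low at 8W and 11W. At 19W they summed to 383 to 410 CPM, above their 346 to 369 at 13W, while bHLH68 was at 211, 171 and 169 CPM at 19W. The part of the clock or of the sampling hour in these values was not tested.

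Members named bHLH123 went separate ways. Jr1DG00287400, which NR calls an actin depolymerizing factor, was at 1.69 ± 0.674 CPM at 11W and 23.1 ± 2.47 at 13W, a log2 change of 3.76 ± 0.19 with adjusted p 3.33e-14. Jr1SG00174000 was at 7.77, 5.03 and 6.45 CPM at 8W and at 0.164, 0.234 and 0 at 19W, so all 8W libraries were above all of 19W, and its log2 change was -5.52 ± 0.55, adjusted p 2.92e-09, or -6.24 without the second 19W library. Jr6SG00125500 lay between 1.16 and 2.47 CPM in the 18 libraries outside 17W and at 6.23, 6.68 and 5.95 there, and it rose by 2.23 ± 0.27 from 15W to 17W, adjusted p 1.39e-07.

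The root hair class had 3 tested genes of 10, since most of its genes named bHLH84 or bHLH85 had almost no reads. bHLH66 (Jr8DG00157900; UNE12-like in NR), a relative of the LRL proteins that promote root hair growth in Arabidopsis, was at 68.8, 64.1 and 70.1 CPM at 11W, 272, 239 and 276 at 13W, 733, 825 and 816 at 17W and 205, 191 and 213 at 19W. The 17W libraries were above all others and the 11W libraries below. It rose by 1.95 ± 0.08 (log2) from 11W to 13W, adjusted p 1.6e-15, rose by 1.39 ± 0.08 from 15W to 17W, adjusted p 3.36e-13, and fell by 1.96 ± 0.08 to 19W, adjusted p 1.75e-15. The gene named bHLH66 on chromosome 8S (Jr8SG00108300) had the reverse balance, with 60.9 ± 1.92 CPM at 8W and 21.5 ± 2.34 at 19W. bHLH7 (Jr4SG00102800), another gene chosen after its values were seen, was at 64.6, 30.9 and 27.9 CPM at 11W and at or below 17.5 in every other library.

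**Figure D4:**
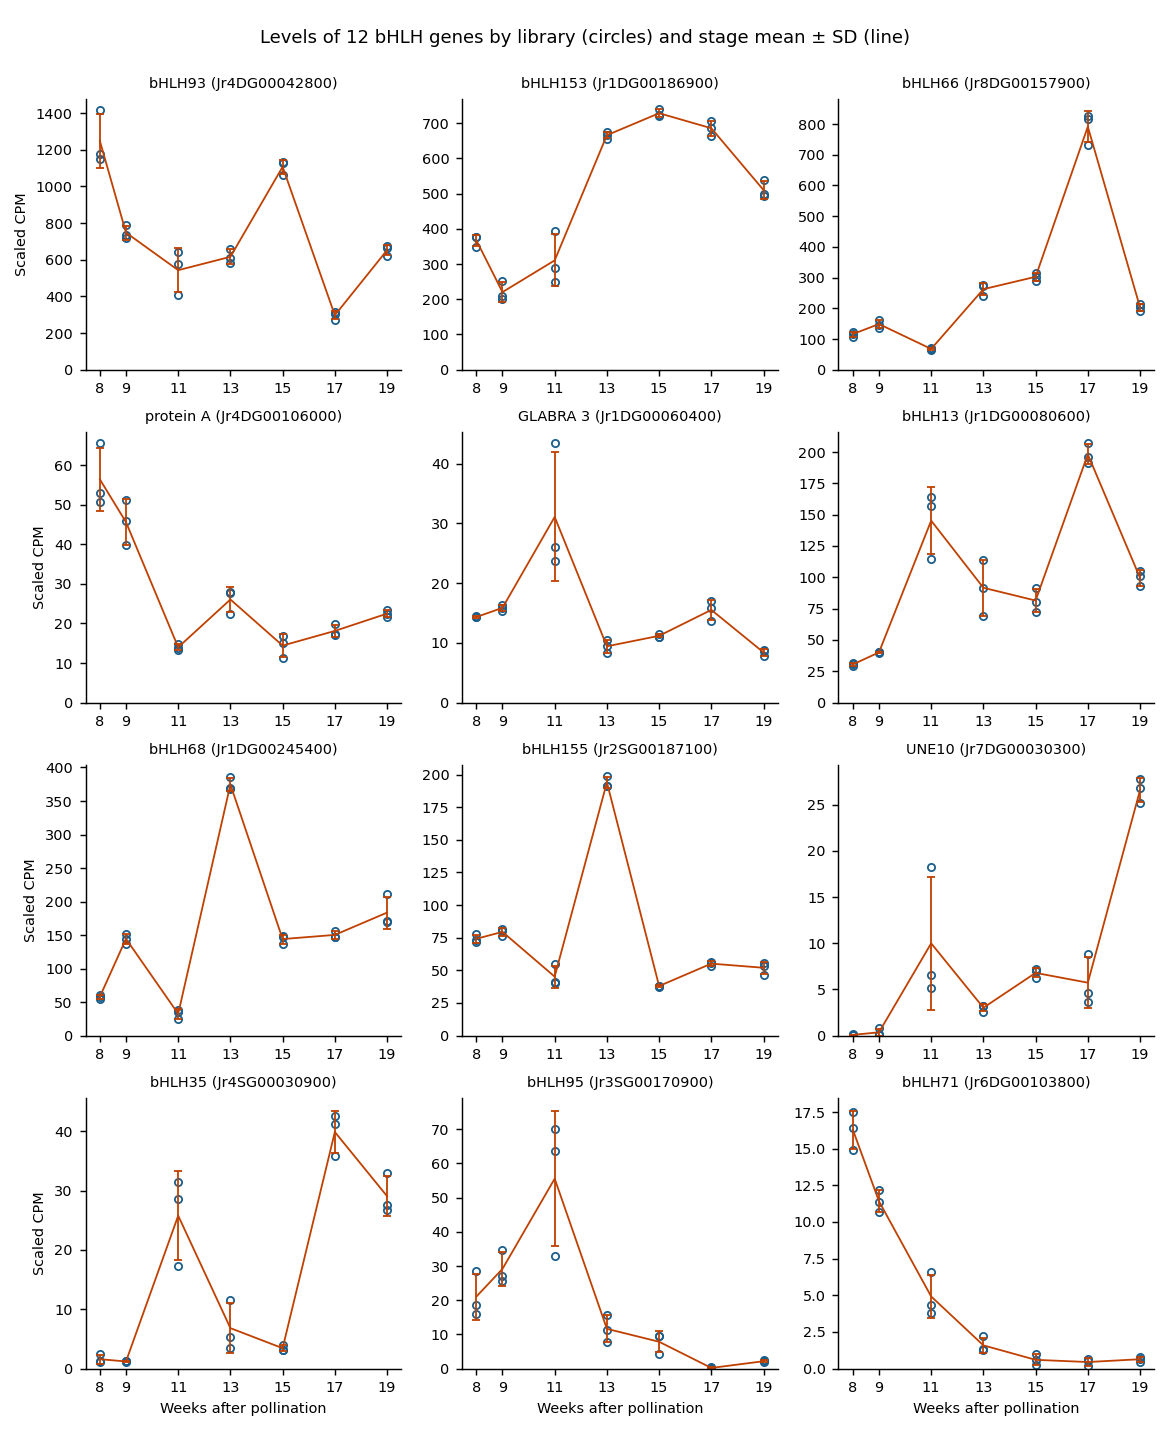
CPM (vertical axis from 0, its own scale in each panel) of 12 bHLH genes against weeks after pollination, with 1 circle per library and a line through the stage means with SD bars. bHLH68 and bHLH155 stand out at 13W, bHLH66 at 17W with 791 CPM, bHLH13 and bHLH35 at both 11W and 17W, and bHLH71 falls from 16.3 CPM at 8W to under 1 CPM from 15W on.

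Among light-related genes, UNE10 (Jr7DG00030300), a relative of the phytochrome-interacting factors, was nearly absent at first and highest at the end. It was at 0.121, 0.0637 and 0.0576 CPM at 8W, 18.2, 5.12 and 6.60 at 11W and 25.2, 26.7 and 27.8 at 19W. The 19W libraries were above all others and the 8W libraries were low, with a log2 change of 8.22 ± 0.69, adjusted p 4.86e-09. The rise from 9W to 11W was 4.84 ± 0.58, adjusted p 9.06e-07, and it was 6.17 without the third 9W library and 4.05 without the first 11W library, the one highest in storage transcripts. The storage transcripts were also high at 11W and 19W, and their part in the UNE10 values was not tested. SPATULA (Jr1DG00015700), which shapes the carpel in Arabidopsis, was at 20.9, 24.8 and 21.1 CPM at 8W and 67.9, 60.8 and 73.2 at 17W, the highest libraries of the series. Of the phytochromes and DELLA proteins, which act on such factors, 8 of 18 were tested. At 19W 2 were higher and 6 lower than at 8W (against 39% and 38.8% of all tested genes), with a median of -0.54.

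The growth class of BEE, CIB and related genes showed no common direction from 8W to 19W. Of 14 tested 5 were higher and 6 lower (against 39% and 38.8% of all tested genes), with a median of 0.04. From 9W to 11W 7 rose and 2 fell (against 34.3% and 31.6%). From 15W to 17W again 7 rose and 2 fell (against 29.3% and 30.8%). bHLH74 (Jr4SG00051200), a promoter of cell elongation in Arabidopsis, was at 42.0, 48.5 and 44.4 CPM at 9W, 232, 128 and 121 at 11W and 22.0, 27.1 and 20.8 at 13W. The 11W libraries were above all others, the first of them by the widest margin, and the log2 changes were 1.83 ± 0.21, adjusted p 1.4e-06, and -2.78 ± 0.23, adjusted p 2.18e-08. bHLH49 (Jr3DG00109000), another elongation factor, lay between 39.9 and 103 CPM in all libraries, and its change from 8W to 19W of 0.13 ± 0.08 did not pass, adjusted p 0.115. Its sign turned with upper-quartile factors, at -0.07, and with library sizes alone, at -0.20.

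The iron class kept a summed level of 114 to 157 CPM over the stage means. Of 7 genes 6 were tested and the FIT-type gene (Jr6DG00058600), named for the regulator of root iron uptake, had no reads. At 19W 5 were higher and 1 lower than at 8W (against 39% and 38.8% of all tested genes), with a median of 0.35. bHLH47 (Jr6DG00041900), the POPEYE type that restrains iron responses in Arabidopsis, was at 31.4, 26.7 and 32.6 CPM at 8W and 40.6, 41.9 and 44.0 at 19W. All 19W libraries were above all of 8W, by a log2 change of 0.48 ± 0.09, adjusted p 4.25e-05. bHLH121 (Jr3SG00135600), an activator of iron uptake genes in Arabidopsis, was highest at 11W, at 39.2, 51.2 and 59.9 CPM, against 19.3 ± 0.995 at 9W. Its smaller change from 8W to 19W, 0.27 ± 0.12 with adjusted p 0.0421, was at -0.07 with library sizes alone. Among the 15 tested iron uptake and storage genes of 24, 7 were higher and 4 lower at 19W (against the same 39% and 38.8%), with a median of 0.20. The gene with the most reads, the chloroplast iron transport protein Jr8DG00034700, had means of 105 and 401 CPM at 8W and 17W.

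All 11 genes of the FBH class, whose Arabidopsis members activate CONSTANS, were tested. At 19W 7 were higher and 2 lower than at 8W (against 39% and 38.8% of all tested genes), with a median of 0.88. From 11W to 13W 8 rose and 1 fell (against 32.1% and 35%), with a median of 0.92. bHLH130 (Jr5DG00031200) was at 23.5, 28.2 and 25.8 CPM at 8W, 55.0, 49.1 and 61.3 at 13W and 61.4, 58.6 and 60.3 at 17W, and both later stages were above 8W in every library. Its change from 8W to 19W was 0.26 ± 0.10, adjusted p 0.0281, and -0.08 with library sizes alone. bHLH122 (Jr7SG00131400) was at 18.8, 20.4 and 20.1 CPM at 9W and between 0.612 and 4.11 in the other libraries. It rose by 2.83 ± 0.26 (log2) from 8W, adjusted p 1.32e-09, and fell by 3.68 ± 0.28 to 11W, adjusted p 6.31e-11. The LHY sum was also highest at 9W, and its part in this value was not tested.

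Both genes named bHLH95, after the ZHOUPI regulator that breaks down the endosperm in Arabidopsis, were highest at 11W and low at the end. Jr3SG00170900 was at 33.0, 70.1 and 63.6 CPM at 11W, 0.385, 0 and 0.142 at 17W and 2.46, 2.18 and 1.77 at 19W. All its libraries from 17W and 19W lay below all earlier ones, and it fell by 5.40 ± 0.77 (log2) from 15W to 17W, adjusted p 1.42e-05, or by 6.53 without the first 17W library. Jr3DG00007900 was at 9.84, 22.8 and 18.5 CPM at 11W and 0.246, 0.234 and 0.0772 at 19W, lower than at 8W by a log2 change of -5.79 ± 0.50, adjusted p 4.86e-10. The embryo and kernel storage genes were at 15651 to 19761 CPM at 19W, where both genes were low, and at 11571 to 24440 CPM at 11W, where both were high. The first 11W library, highest in storage transcripts, was the lowest of that stage for both genes. The part of the storage transcripts in these values was not tested. ABORTED MICROSPORES (Jr3SG00090300), an anther regulator in Arabidopsis, was at 12.8 ± 2.25 CPM at 8W and 17.7 ± 2.74 at 19W.

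Of the NAI1 type, named for a gene of endoplasmic reticulum bodies, 3 of 6 were tested. bHLH25 (Jr4DG00041400) was at 1.28, 0.382 and 0.806 CPM at 8W, 0, 0.565 and 0.209 at 13W and 43.4, 38.8 and 60.5 at 19W. The 19W libraries were the highest of the series, with a log2 change from 8W of 5.83 ± 0.42, adjusted p 4.04e-10. The change from 13W to 15W was 4.42 ± 0.61, adjusted p 1.07e-05, and 5.65 without the second 13W library. bHLH149 (Jr4DG00032100), of the short HLH proteins that bind partners rather than DNA, went from 2.37, 1.72 and 2.07 CPM at 8W to 32.3, 39.3 and 30.7 at 17W, and was higher at 19W than at 8W by 3.39 ± 0.24 on the log2 scale, adjusted p 1.31e-11. The carpel regulator HEC2 (Jr1SG00008400) was seen at 8W at 0.850, 1.53 and 0.979 CPM and had no reads from 13W on, so it was at least 4.72-fold lower at 19W with 3 reads per library as the floor, adjusted p 0.000139.

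Outside these classes, bHLH153 (Jr1DG00186900; bHLH113 in NR) was at 208, 253 and 201 CPM at 9W and 741, 722 and 723 at 15W, with all 9W libraries below and all 15W libraries above those of 8W. It rose by 1.10 ± 0.11 (log2) from 11W to 13W, adjusted p 9.05e-09. The gene matched to rice bHLH094 (Jr3DG00128800) was at 83.1, 86.6 and 105 CPM at 8W and between 19.6 and 33.5 in all other libraries, and it fell by 2.06 ± 0.12 from 8W to 9W, adjusted p 1.35e-12.

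Some genes had their 3 highest stage means at 11W, 17W and 19W. Of the tested bHLH genes 8 had them there, and 14 at 8W, 9W and 11W, the most frequent set. The share of all tested genes with these sets was not counted. This grouping was chosen after the values were seen and carries no test. Such a rank need not set a stage apart: bHLH74 (Jr4SG00051200) was at 53.7, 42.3 and 63.0 CPM at 17W and 43.6, 54.6 and 53.3 at 15W. Among the 8 were bHLH13, bHLH74, both genes named bHLH35 and both tested genes named bHLH162. bHLH162 (Jr2SG00118200) had no reads at 8W and 9W and was at 6.13, 7.15 and 8.27 CPM at 11W, 7.70, 6.11 and 8.00 at 17W and 1.97, 6.47 and 6.79 at 19W. It was at least 44.6-fold higher at 11W than at 9W, adjusted p 5.19e-06, and at least 27.9-fold higher at 19W than at 8W, adjusted p 1.32e-05, with the same floor. The other bHLH162 gene, Jr6SG00041800, held 3 reads in all at 8W and was at 19.3, 17.5 and 16.0 CPM at 19W, a ratio of 289.9 with a counting interval of 98.8 to 1409 and adjusted p 1.5e-12. Its fitted log2 change moved from 7.99 to 8.85 without the second 8W library.

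bHLH35 (Jr4SG00030900) was also among the 8. It was at 1.19, 1.25 and 1.14 CPM at 9W, 17.3, 28.7 and 31.4 at 11W, 3.13, 3.97 and 3.19 at 15W and 41.2, 35.8 and 42.6 at 17W. The 11W and 17W libraries were all above those of 9W, 13W and 15W. It rose by 4.42 ± 0.37 (log2) from 9W to 11W, adjusted p 1.1e-08, fell by 1.92 ± 0.30 to 13W, adjusted p 2.38e-05, and rose by 3.53 ± 0.33 from 15W to 17W, adjusted p 5.92e-08. The gene named bHLH35 on chromosome 4D (Jr4DG00194400) was at 10.5 ± 0.230 CPM at 9W, 92.4 ± 12.7 at 11W and 128 ± 2.50 at 17W. Of the other lists, LHY was at 34.9 to 46.7 CPM at 11W, 90.5 to 104 at 17W and 383 to 410 at 19W. The storage genes were at 11571 to 24440 CPM at 11W, 2760 to 4726 at 17W and 15651 to 19761 at 19W. The part of either list in the values of the 8 genes was not tested.

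The bHLH genes lay on all chromosomes, 82 on those whose names end in D and 62 on those ending in S, against 18179 and 13107 of all genes. Chromosomes 1D and 4D held 17 each and 4S held 15. There were 17 pairs, made of 28 genes, with neighbours within 100 kb, such as bHLH129 (Jr1DG00144300) and bHLH128 (Jr1DG00144400), which are 6555 bases apart on chromosome 1D. bHLH129 was at 12.5 CPM at 17W against 2.70 at 8W, and bHLH128 at 28.8 against 5.01.

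Genes of the same name on the D and S chromosomes of one number were set side by side. This pairing, set up after the data were seen, gave 34 pairs, of which 24 had both genes tested. At 19W against 8W 10 pairs were called in the same direction, 6 in opposite directions and 8 had 1 or neither gene called. Over all tested genes 39% were higher and 38.8% lower. The 6 opposite pairs were bHLH155, bHLH121, bHLH74, bHLH80, bHLH106 and bHLH66. Some of their log2 changes were small, at 0.44 for bHLH155 on 2D (Jr2DG00248300) and 0.34 for bHLH121 on 4S (Jr4SG00131200). For bHLH74 the log2 changes were -1.43 on 4D (Jr4DG00172700), adjusted p 2.36e-07, and 2.23 on 4S (Jr4SG00051200), adjusted p 1.54e-07. The highest stage was the same in 10 of the 24 pairs, and the D gene had the higher mean FPKM in 16. None of these counts was made for pairs of other genes. Near-identical copies can share reads in a way the table does not show, and the same name is no proof that both come from one ancestral gene.

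**Figure D5:**
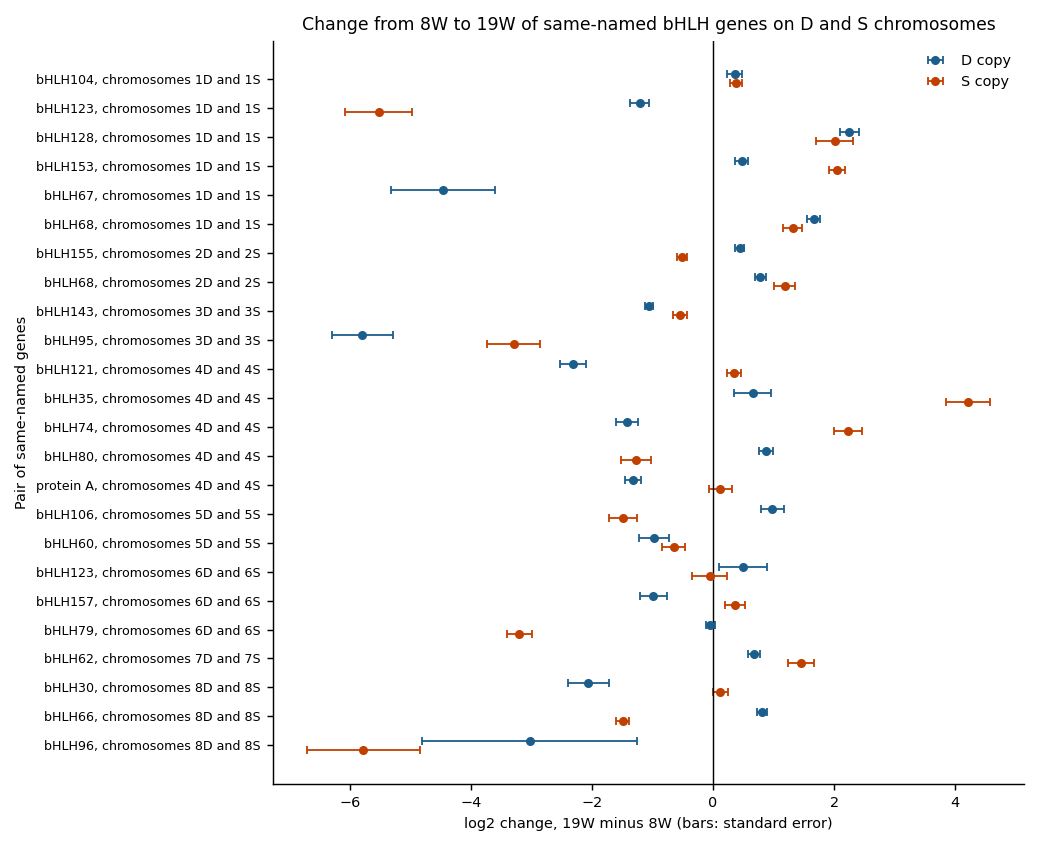
Log2 change from 8W to 19W (horizontal axis, bars for the standard error) of the D gene (blue) and the S gene (orange) in the 24 same-named pairs with both genes tested. Pairs on either side of 0 include bHLH74 at -1.43 and 2.23 and bHLH66 at 0.81 and -1.50. A gene with no reads at either stage, bHLH67 on 1S, has no point.

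By domain, 88 of the 144 genes carry the Pfam helix-loop-helix domain and 12 the MYC N-terminal domain, 6 of them both, while 49 have no Pfam entry. The 56 genes without a listed helix-loop-helix domain held 46.1% of all bHLH reads, among them bHLH153, bHLH68, bHLH143 and bHLH145. Of their 38 tested genes 21 were higher and 13 lower at 19W than at 8W, and of the 65 tested genes with the domain 23 were higher and 27 lower. The domain is also listed for 39 genes outside the name rule. The 25 of these that were tested all differed between stages, and 9 were higher and 11 lower at 19W than at 8W. Over all tested genes 97.7% differed between stages, and 39% were higher and 38.8% lower at 19W than at 8W. A wider list of 60 relatives under proper names such as PIF3, ICE1, UNE12, ILR3 and BIM had 34 tested, 13 higher and 14 lower, with a median log2 change of 0.06. Of these, the gene named inducer of CBF expression 1 (Jr6SG00014000) had means of 179.8 and 20.3 CPM at 9W and 17W, and the iron regulator ILR3-like Jr6SG00126900 of 91.7 and 169.96 CPM at 9W and 19W.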

How the data were processed

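Pellicle RNA of 7 stages, 3 libraries each, was poly(A)-selected, cleared of rRNA and sequenced in pairs with strand kept, per the labels' protocols. Raw read counts for each gene, which the authors deposited as whole numbers, and FPKM values stand side by side in 1 table, per the file headers. The deposited FPKM equal the count divided by gene length and by the library's total, within a relative deviation of 5.13e-15. The submitters' processing notes list FastQC, HISAT2, Cufflinks and DESeq2. The sources used here do not give the build, annotation, counter or use of strand, so near-identical, overlapping and antisense genes may share reads. Names, Pfam entries and positions were read from that table. Sequences of the members were not used here.

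Counts of all 21 libraries entered edgeR 4.0.16 (limma 3.58.1, R 4.3.3) with filterByExpr by stage, TMM factors of 0.88 to 1.14, a quasi-likelihood fit (robust) by stage without a replicate term, and Benjamini-Hochberg adjustment over 21707 genes at a threshold of 0.05. The biological coefficient of variation was 0.102. Contrasts were 2-sided, and an F-test spanned the 7 stages. The SE is the absolute log2 change divided by the square root of F. Folds against 0 reads use a floor of 3 reads per library, and those against 1 to 3 reads an exact Poisson interval. Replicates differed beyond sampling noise (chi-square of 3.13 to 28.1 per degree of freedom), so none was merged. The fit was tested on simulated counts.

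Role classes follow Arabidopsis names and numbers in the descriptions. The genes named are every tested flavonoid and jasmonate gene, the 2 light, growth and iron genes and the 1 gene of each other class with the highest mean CPM, then the 5 largest rises and 5 largest falls between 8W and 19W and the largest rise and fall of each step, given a call, libraries that do not overlap and 5 CPM or more in the higher stage. Other genes named, among them bHLH145, bHLH30, bHLH7, the other copies of bHLH35, bHLH66 and bHLH74, ABORTED MICROSPORES, bHLH128, bHLH129, TIFY 5A, anthocyanidin reductase and the relatives under other names, were chosen after their values were seen. A list of TTG1 WD40 proteins took 0 genes by name, and 23 chlorophyll a-b binding genes summed to 158 to 530.1 CPM per library. The members and lists were chosen with earlier results of these data known. Alternatives were RLE and upper-quartile factors, library sizes alone, no filter, 1 CPM in 3 libraries as the filter, DESeq2 1.42.0, the replicate block, each pair of stages fitted alone, each library left out in turn, and other ranges for peak stages.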

Additional observations from a re-analysis of the deposited data

How the results depend on the processing

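Counts of bHLH genes called in each comparison stayed within 1.5 times under every scaling, filter, tool and left-out library tried. Each fit with a library left out applied its own filter, so its number tested need not be the 103 of the main fit. With 1 library left out at a time, 101 to 103 genes differed between stages, 39 to 47 were higher and 40 to 41 lower at 19W than at 8W, 28 to 35 were higher and 25 to 33 lower at 9W than at 8W, 40 to 44 and 35 to 37 at 11W than at 9W, 35 to 39 and 38 to 43 at 13W than at 11W, 13 to 19 and 31 to 38 at 15W than at 13W, 38 to 42 and 18 to 21 at 17W than at 15W, and 17 to 23 and 26 to 31 at 19W than at 17W. With a 4-fold range in place of 2-fold, 6 genes peaked at 13W and 2 at 15W, in place of 15 and 6, since fewer genes reach that range. For the 35 named genes and 70 named changes, leaving out a library kept 1446 results, ended 18 calls, added 3 and turned 3 signs, and the other alternatives kept 538, ended 10, added 1 and turned 6. The turned signs were small changes from 8W to 19W: -0.09 and -0.21 for Jr4SG00103600 and -0.07 and -0.20 for Jr3DG00109000 with upper-quartile factors and library sizes alone, -0.08 for Jr5DG00031200 and -0.07 for Jr3SG00135600 with library sizes alone, 0.37 for Jr4SG00144500 without 8W replicate 2 (its range with 1 library left out was -1.46 to 0.37), and 0.21 and 0.06 for Jr6SG00125500 without 8W replicate 2 and without 19W replicate 3. The median of all genes from 8W to 19W shifts to -0.22 with upper-quartile factors and to -0.34 with library sizes alone, and 0 members were called in the opposite direction there. The replicate block changed 0 of the 70 calls of named genes. Same-numbered libraries did not deviate together (63 pairs, correlations of -0.08 to 0.06), and 6 of 21 libraries correlated best with their own number, so the numbers do not pair the samples. With DESeq2, HEC2 had a log2 change of -6.30 in place of -7.06. Genes with a few reads in a stage carry wide intervals, and the 41 untested genes cannot be read at this depth.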
